A study of Mus musculus with 13 samples.

Results

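Transcripts of 10 genes of bone morphogenetic protein (BMP) signalling were examined in mouse lung: the ligands Bmp2, Bmp4, Bmp5 and Bmp6, the receptor Bmpr2, the secreted modulators Bmper and Grem1, and the target genes Id1, Id2 and Id3. They were found by gene symbol in the deposited tables, which list 20270 genes, and all 10 passed the filter on low counts that left 15315 genes for testing. The lower right lobe of the lung was sequenced from 4 control mice, labelled wildtype, and 5 wildtype mice given bleomycin (WT bleomycin). It was also sequenced from 4 mice lacking cannabinoid receptor 1 (CB1R) given bleomycin (CB1R KO bleomycin). The study's methods describe male C57BL/6J mice 13 weeks old, Cnr1-/- mice on a C57Bl/6J background whose age is not given there, a single oropharyngeal dose of bleomycin with collection 14 days later, and sterile saline for controls. Bleomycin is a DNA-damaging drug used to induce lung fibrosis, the deletion in Cnr1-/- mice is carried by all their cells, and saline-treated CB1R KO mice were not analysed here. Label numbers serve as names: control mice are 3, 21, 24 and 26, WT bleomycin mice are 4, 2, 5, 4-B2 and 7, and CB1R KO bleomycin mice are 8, 9, 10 and 11.

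BMPs are secreted ligands of the TGF-beta superfamily that bring together type I and type II receptors, after which the receptor-activated Smads 1, 5 and 9 are phosphorylated, join Smad4 and act in the nucleus. Id genes, which encode inhibitors of basic helix-loop-helix transcription factors, are classical direct targets of these Smads. Outside the cell the ligands are bound by antagonists such as gremlin 1 and noggin, and in the adult lung the type II receptor BMPR2 is best known for its role in pulmonary vascular endothelium, where its loss underlies heritable pulmonary arterial hypertension.

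In WT bleomycin lungs (n = 5) Grem1 transcripts rose 24.3-fold over control (n = 4), a log2 fold change of 4.60 with a standard error (SE) of 0.46. Those of Bmp6 and Bmpr2 fell to 0.303 and 0.528 times the control level, with log2 fold changes of -1.72 (SE 0.21) and -0.92 (SE 0.11). Among the Id genes, Id2 rose 1.34-fold (log2 fold change 0.42, SE 0.07), while Id1 and Id3 did not pass the test. By edgeR's test over all genes 0 of the 10 members passed between CB1R KO and WT bleomycin lungs, beside 0.979% of all genes tested, and the member closest to doing so was Bmper, at 0.765 times the WT bleomycin level.

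Library totals were between 14615904 and 16662580 estimated counts in 12 libraries and 53463884 in CB1R KO mouse 11. Cnr1, the deleted gene, was counted in every library, at 41 to 188.1 estimated counts in those labelled CB1R KO, so its transcript did not check the genotype. The WT bleomycin labels 4 and 4-B2 share a number, and their libraries differed, with Bmp6 at 41.7 and 25.5 TPM. Such a difference cannot show whether they came from different mice, and the labels do not say. They were assumed to be separate mice and are counted so throughout. If they came from the same mouse, the WT bleomycin group would hold fewer independent mice than stated. Lung markers were present, since the listed markers of endothelium, fibroblasts, type I cells, type II cells and macrophages each summed to at least 1460 CPM (counts scaled to the library total after TMM normalization) in every library.

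For the members whose levels differed most in each role, the 250 bases before the annotated start of transcription are shown with the motif GGCGCC, the palindromic GC-rich element that Smads 1 and 5 can bind, in capitals. The windows are from RefSeq, build GRCm38.p6, and lie at chr13:38345466-38345715, plus strand, for Bmp6, chr1:59764029-59764278, plus strand, for Bmpr2, chr2:113758649-113758898, minus strand, for Grem1, and chr12:25096093-25096342, minus strand, for Id2.
Bmp6: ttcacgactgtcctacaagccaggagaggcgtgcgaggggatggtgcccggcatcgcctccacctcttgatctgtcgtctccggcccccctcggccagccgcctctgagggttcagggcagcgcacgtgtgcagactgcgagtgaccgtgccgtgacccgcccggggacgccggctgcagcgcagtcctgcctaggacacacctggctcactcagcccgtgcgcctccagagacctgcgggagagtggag
Bmpr2: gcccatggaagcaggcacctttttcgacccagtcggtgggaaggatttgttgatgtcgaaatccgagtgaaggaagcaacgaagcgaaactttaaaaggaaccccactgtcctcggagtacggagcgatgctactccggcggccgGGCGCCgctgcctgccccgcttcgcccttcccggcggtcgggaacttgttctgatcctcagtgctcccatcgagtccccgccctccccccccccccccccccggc
Grem1: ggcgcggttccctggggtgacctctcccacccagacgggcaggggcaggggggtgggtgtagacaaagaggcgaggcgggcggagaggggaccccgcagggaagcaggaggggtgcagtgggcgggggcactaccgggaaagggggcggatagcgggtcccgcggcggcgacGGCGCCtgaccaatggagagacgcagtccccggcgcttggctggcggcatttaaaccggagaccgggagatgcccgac
Id2: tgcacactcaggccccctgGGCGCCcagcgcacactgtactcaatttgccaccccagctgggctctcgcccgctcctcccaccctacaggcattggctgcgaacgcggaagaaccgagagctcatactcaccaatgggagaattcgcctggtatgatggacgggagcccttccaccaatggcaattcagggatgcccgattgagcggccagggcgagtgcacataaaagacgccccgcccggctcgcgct
The motif occurred once in the windows of Bmpr2, Grem1 and Id2, starting 105, 78 and 231 bases before the start, and was not among the letters of the Bmp6 window. Of the 10 members, 8 had a window, which leaves Bmp2 and Id1, and GGCGCC was in none of the windows of Bmp4, Bmp5, Bmper and Id3. Of all 32851 windows of the same length, 9.59% held GGCGCC, which reads the same on both strands. The palindrome GTCTAGAC, a Smad3 and Smad4 binding sequence that does not overlap with GGCGCC, was in 0.167% of windows and in none of the 8. The GC content was 68.8% for Bmp6, 64% for Bmpr2, 72% for Grem1 and 62.8% for Id2, against a median of 52.4% over all windows. These matches describe sequence only, since binding was not measured.

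Levels of different genes were compared on the deposited TPM scale, in which counts are corrected for transcript length and library total. In control lungs the order of median TPM was Id1 (212), Id3 (161), Bmp6 (106), Id2 (101), Bmpr2 (72.2), Bmp4 (52.5), Bmp5 (40.3), Bmper (11.4), Bmp2 (3.46) and Grem1 (0.364). Ranges of neighbours overlapped only between Id1 and Id3 and between Bmp6 and Id2. In WT bleomycin lungs the 3 Id genes led the order, at medians of 186 for Id1, 164 for Id3 and 142 for Id2, with overlapping ranges. Bmp5 (43.1), Bmp4 (43.0), Bmpr2 (38.2) and Bmp6 (34.8) then formed a run of genes in which each overlapped the next, and Grem1 (9.63) stood above Bmp2 (2.08) in all 5 mice. CB1R KO bleomycin lungs had the same 3 leading Id genes, a run of Bmp6 (48.0), Bmpr2 (47.3), Bmp4 (43.4) and Bmp5 (41.5) with overlapping neighbours, and Grem1 (5.92) above Bmp2 (2.04) in all 4 mice. Bmp6 was thus above Bmp4 in every control lung and below it in all 5 WT bleomycin lungs. Among CB1R KO bleomycin lungs it was above Bmp4 in mice 8 and 9 and below it in mice 10 and 11. The ranges of the 2 genes overlapped in both bleomycin groups.

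**Figure D1:**
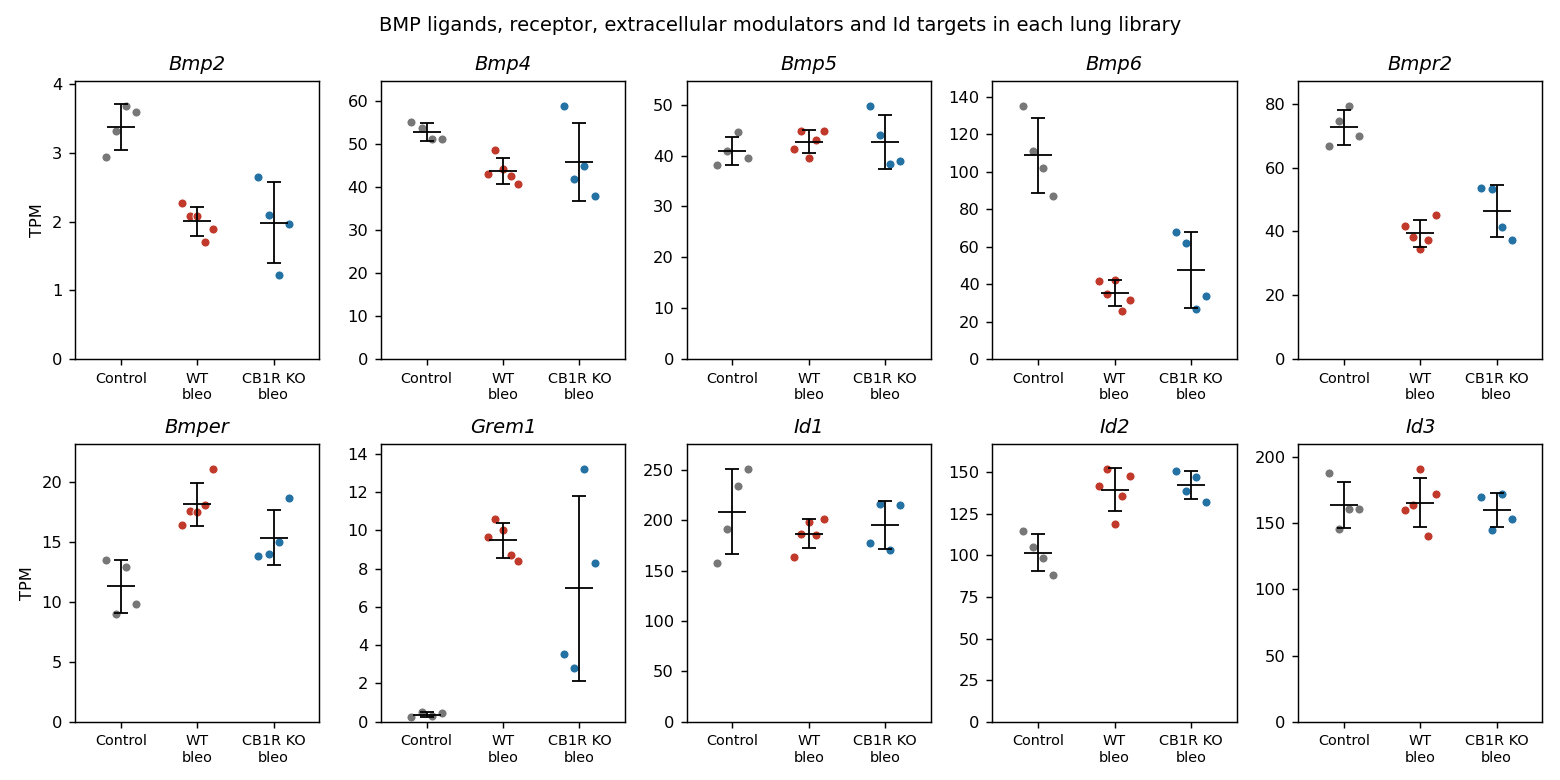
TPM of the 10 genes in each library, with a point per mouse, a bar for the group mean and whiskers of 1 SD (4 control, 5 WT bleomycin and 4 CB1R KO bleomycin mice). Bmp6 and Bmpr2 lie lower and Grem1 and Id2 higher in every WT bleomycin mouse than in every control mouse, and the CB1R KO points of Bmp6 and Grem1 spread more widely than the WT bleomycin points.

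For WT bleomycin against control, 7 of the 10 members passed an adjusted p of 0.05 in edgeR's quasi-likelihood test over all genes, beside 48.9% of all genes tested. Higher were 3 members (25.0% of all genes) and lower were 4 (23.9% of all genes), and the median log2 fold change of the 10 was -0.10, beside -0.008 over all genes. The groups did not overlap in CPM for the same 7 members, beside 40.3% of all genes. The labels are written in 2 styles, with capitals for control mouse 26 and WT bleomycin mice 4-B2 and 7, and 7 members passed with that style as a batch term and 6 with the libraries of lower-case labels alone. Over all genes, 5701 to 7753 passed in this comparison under the 25 alternative settings. Since so many genes passed, the members are described by their own values.

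Among the ligands, Bmp6, which is also a regulator of hepcidin and iron balance, had TPM of 135, 111, 102 and 87.1 in control lungs (mice 3, 21, 24 and 26), 41.7, 34.8, 42.0, 25.5 and 31.5 in WT bleomycin lungs (mice 4, 2, 5, 4-B2 and 7), and 68.0, 62.1, 26.5 and 33.8 in CB1R KO bleomycin lungs (mice 8, 9, 10 and 11). Every bleomycin-treated mouse of either genotype lay below every control mouse, and CB1R KO mice 8 and 9 lay above all 5 WT bleomycin mice while mice 10 and 11 lay within their range. WT bleomycin against control gave a log2 fold change of -1.72 (SE 0.21, 95% interval -2.17 to -1.27, edgeR adjusted p = 1.45e-05).

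Bmp2, a ligand with roles in endothelium and bone, was scarce, with control TPM of 2.94, 3.32, 3.68 and 3.59 and WT bleomycin TPM of 2.27, 2.08, 2.08, 1.70 and 1.89. The CB1R KO bleomycin lungs were at 2.65, 2.10, 1.23 and 1.97 TPM. No bleomycin-treated lung reached the lowest control lung. For WT bleomycin against control this was a log2 fold change of -0.79 (SE 0.18, edgeR adjusted p = 0.00193).

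Bmp4, a mesenchymal and epithelial ligand needed for lung branching, moved less, with control TPM of 55.2, 53.8, 51.1 and 51.2 and WT bleomycin TPM of 43.0, 48.6, 44.1, 42.5 and 40.7. CB1R KO bleomycin lungs gave 58.8, 41.9, 44.9 and 38.0 TPM, so mouse 8 stood above all control mice and the other 3 below them. The log2 fold change of WT bleomycin against control was -0.28 (SE 0.10, edgeR adjusted p = 0.0259), and the call was lost without control mouse 21 (-0.27), WT bleomycin mouse 4 (-0.26), 5 (-0.27) or 7 (-0.26). Bmp5, expressed with Bmp4 in lung mesenchyme, ranged from 38.2 to 44.7 TPM in control, 39.5 to 44.9 in WT bleomycin and 38.3 to 49.7 in CB1R KO bleomycin lungs. These ranges overlapped, and its log2 fold change of WT bleomycin against control was 0.03 (95% interval -0.14 to 0.20).

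The make-up of the ligand transcripts was described by each ligand's share of their sum. The summed TPM of the 4 ligands was 206 ± 21.1 (SD, n = 4) in control, 124 ± 7.30 (n = 5) in WT bleomycin and 138 ± 32.6 (n = 4) in CB1R KO bleomycin lungs. Bmp6 made up 58.4%, 53.0%, 50.6% and 48.0% of that sum in the 4 control lungs and between 22.6% and 32.9% in WT bleomycin lungs. In CB1R KO bleomycin lungs the Bmp6 share was 38.0%, 41.3%, 23.9% and 30.0%. The shares of Bmp4 and Bmp5 were higher in value, at 35.4% ± 1.89 and 34.7% ± 3.24 (SD, n = 5) in WT bleomycin against 25.8% ± 1.78 and 20.1% ± 2.61 (SD, n = 4) in control lungs, and Bmp2 stayed at 1.11% to 1.98% in all libraries. These shares are a description of the deposited TPM and were not tested.

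**Figure D2:**
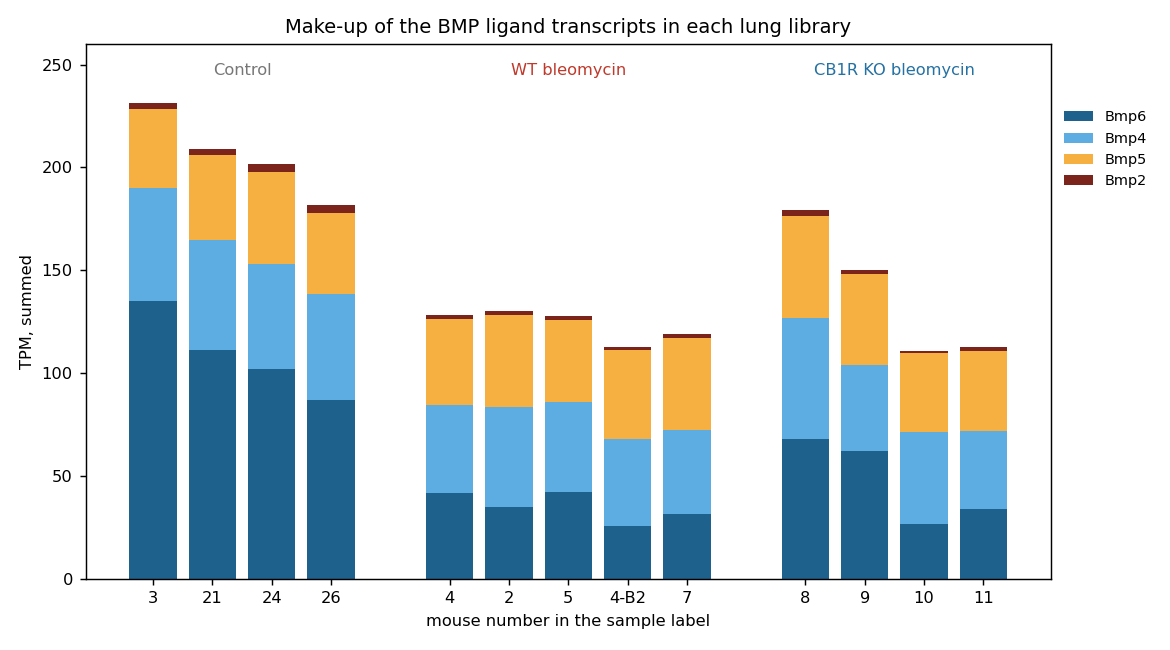
TPM of Bmp6, Bmp4, Bmp5 and Bmp2 stacked for each library, with libraries named by the mouse number in the label and grouped by condition. The Bmp6 portion is the largest in the control bars and in those of CB1R KO mice 8 and 9, and the bars of the 5 WT bleomycin mice and CB1R KO mice 10 and 11 are the shortest, at 111 to 130 TPM in all.

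Bmpr2 encodes the type II receptor that binds BMP ligands with a type I partner. Its TPM was 66.7, 74.5, 79.2 and 69.9 in control lungs, 41.6, 38.2, 34.5, 37.3 and 45.1 in WT bleomycin lungs and 53.5, 53.2, 41.4 and 37.4 in CB1R KO bleomycin lungs. All bleomycin-treated mice lay below all controls, and CB1R KO mice 8 and 9 again lay above the WT bleomycin range. In WT bleomycin lungs Bmpr2 changed by -0.92 on the log2 scale against control (SE 0.11, 95% interval -1.16 to -0.68, edgeR adjusted p = 1.16e-05).

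Most endothelial and capillary markers were lower in WT bleomycin than in control lungs, as were Bmpr2 and Bmp6. Of 8 endothelial markers, WT bleomycin lungs had 6 lower and 1 higher than control (median log2 fold change -0.49), and of 6 capillary markers 5 were lower and none higher (median -0.68). The summed CPM of the endothelial list was 4210 to 5070 in control, 3260 to 3630 in WT bleomycin and 3650 to 3770 in CB1R KO bleomycin lungs. For the capillary list the sums were 957 to 1130, 624 to 738 and 673 to 746. CB1R KO mice 8, 9, 10 and 11 had endothelial sums of 3650, 3770, 3700 and 3700 CPM. Their capillary sums were 673, 722, 725 and 746 CPM, beside Bmp6 at 68.0, 62.1, 26.5 and 33.8 TPM. Type II alveolar cell markers were also lower in 5 of 6 cases (median -0.59, summed CPM 17000 to 20300 in control and 10700 to 12000 in WT bleomycin lungs). The part of these lists in the Bmpr2 and Bmp6 values was not tested, and in whole lung fewer cells of a type and less RNA per cell cannot be told apart.

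Of the secreted modulators, Grem1 encodes gremlin 1, an antagonist that binds BMP2 and BMP4. It was low in control lungs, at 0.228, 0.523, 0.295 and 0.434 TPM, which rested on 10.6 to 24.7 estimated counts per library. WT bleomycin lungs were at 9.63, 10.6, 10.0, 8.73 and 8.39 TPM, and CB1R KO bleomycin lungs at 3.56, 2.80, 13.2 and 8.29 TPM. All 9 bleomycin-treated mice lay above all controls, with a narrow range in WT and CB1R KO mice 8 and 9 below, 10 above and 11 just under that range. The log2 fold change of WT bleomycin against control was 4.60 (SE 0.46, 95% interval 3.62 to 5.59, edgeR adjusted p = 2.4e-06), the largest of the 10 members. On the log2(TPM + 1) scale the difference was 2.93, since a pseudocount of 1 exceeds the control level.

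The ratio of Grem1 to Bmp4 in TPM, an antagonist set against one of its ligands, was 0.00413 to 0.00972 in control lungs and 0.206 to 0.227 in WT bleomycin lungs. In CB1R KO bleomycin lungs it was 0.0605, 0.0670, 0.294 and 0.218 in mice 8, 9, 10 and 11. Bmp4 was at 0.823 times the control level in WT bleomycin lungs, so nearly all of the difference in the ratio came from Grem1.

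Fibroblast markers moved with Grem1. Of 6 fibroblast markers, WT bleomycin lungs had 4 higher and none lower than control (median log2 fold change 1.98), while 7 of 7 alveolar fibroblast markers were lower (median -1.26). The fibroblast sum was 1460 to 1810 CPM in control and 6170 to 9220 CPM in WT bleomycin lungs, and 4410, 4370, 7150 and 6880 CPM in CB1R KO mice 8, 9, 10 and 11. The alveolar fibroblast sum was 3910 to 4540 CPM in control and 1320 to 1830 CPM in WT bleomycin lungs, and 2790, 2680, 1530 and 1920 CPM in the same CB1R KO mice. The part of these lists in the Grem1 values was not tested.

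Bmper encodes a secreted BMP-binding protein, first described in endothelial precursor cells, that can act for or against BMP signalling. In CPM it was 33.8, 23.1, 33.1 and 26.0 in control lungs, 39.7, 43.1, 44.5, 43.8 and 49.6 in WT bleomycin lungs and 33.1, 32.5, 35.3 and 34.1 in CB1R KO bleomycin lungs. WT bleomycin mice lay above all others, and CB1R KO mice overlapped with controls. Bmper differed by a log2 fold change of 0.60 between WT bleomycin and control (SE 0.10, 95% interval 0.38 to 0.83, edgeR adjusted p = 0.000263).

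Of the Id targets, Id2, whose product restrains E proteins in many cell types including lymphocytes, rose. Its TPM was 115, 105, 98.3 and 88.5 in control lungs, 142, 152, 119, 136 and 148 in WT bleomycin lungs and 151, 139, 147 and 132 in CB1R KO bleomycin lungs. All 9 bleomycin-treated mice lay above all controls, and the genotypes overlapped. The log2 fold change of WT bleomycin against control was 0.42 (SE 0.07, 95% interval 0.26 to 0.58, edgeR adjusted p = 0.00035).

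Id1, the Id gene most used as a readout of BMP signalling in endothelium, ranged widely among controls, at 158, 191, 234 and 251 TPM. WT bleomycin lungs were at 164, 186, 198, 185 and 201 TPM and CB1R KO bleomycin lungs at 178, 216, 171 and 215 TPM, so all groups overlapped. Its log2 fold change of WT bleomycin against control was -0.19 (95% interval -0.47 to 0.10), and it passed the test without control mouse 3 (-0.31, edgeR adjusted p = 0.0473). Id3, also a BMP and TGF-beta target, ranged from 146 to 188, 140 to 191 and 145 to 172 TPM in control, WT bleomycin and CB1R KO bleomycin lungs, with a log2 fold change of -0.02 (95% interval -0.21 to 0.17) for WT bleomycin against control.

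The Id genes together held 474 ± 27.6 TPM (SD, n = 4) in control, 492 ± 26.6 (n = 5) in WT bleomycin and 497 ± 4.69 (n = 4) in CB1R KO bleomycin lungs. Within that sum the Id2 share was 17.7% to 24.9% in control, 23.4% to 30.4% in WT bleomycin and 26.4% to 30.1% in CB1R KO bleomycin lungs. The summed level thus overlapped between all groups, with a higher Id2 share in CB1R KO bleomycin than in every control lung. Immediate early genes, which respond rapidly to stimulation and to handling of tissue, had a median log2 fold change of -0.02 over 8 genes for WT bleomycin against control, with 1 higher and 2 lower.

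**Figure D3:**
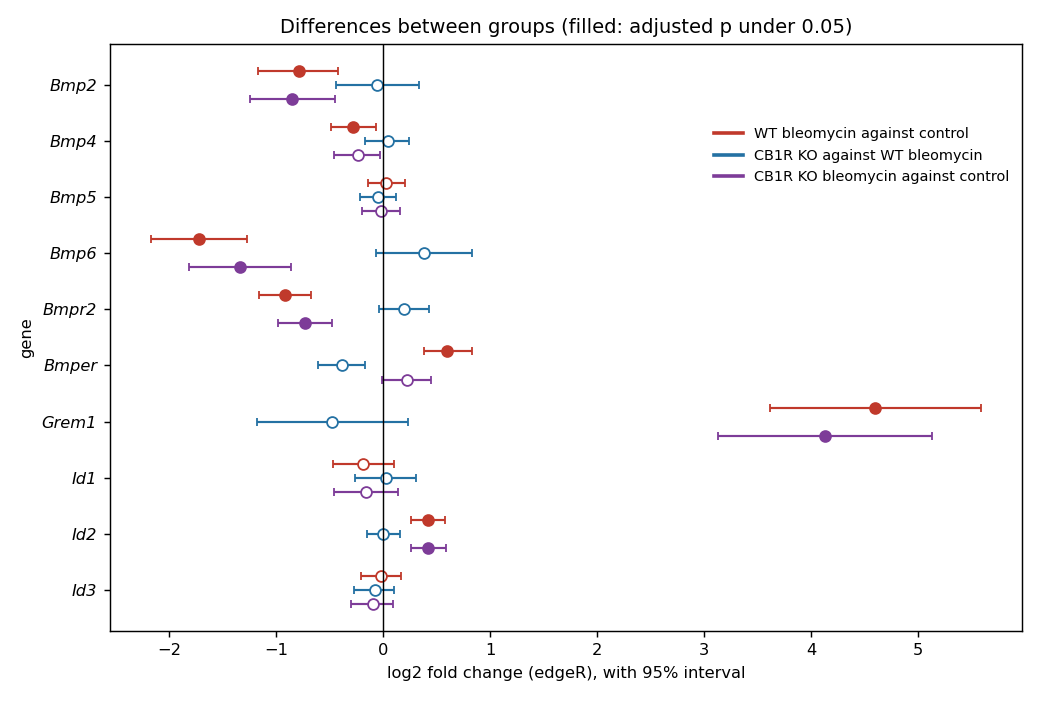
Log2 fold changes of the 10 genes from edgeR with 95% intervals, in 3 colours for the 3 comparisons, filled where the adjusted p was under 0.05. The intervals of Grem1 lie far to the right for both comparisons with control, those of Bmp6, Bmpr2 and Bmp2 lie to the left of 0, and none of the CB1R KO against WT bleomycin points is filled.

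The comparison of CB1R KO with WT bleomycin lungs asked whether the deletion altered these levels after injury. By edgeR's quasi-likelihood test 0 of the 10 members passed an adjusted p of 0.05, beside 0.979% of all genes (0.359% higher and 0.620% lower), and 1 member had an unadjusted p under 0.05, beside 17.0% of all genes. DESeq2 called 1 member, with all libraries or with the 2 groups alone, beside 644 genes in all. With edgeR on the 2 groups alone, 1 member was called beside 88 genes in all. In each case it was Bmper. The groups did not overlap in CPM for 1 member, also Bmper, beside 5.60% of all genes.

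For Bmper the log2 fold change of CB1R KO against WT bleomycin was -0.39 (SE 0.10, 95% interval -0.61 to -0.17, edgeR adjusted p = 0.0805). Over the alternatives the adjusted p ranged from 0.000575 (DESeq2 on 2 groups) to 0.37 (limma on log2(TPM + 0.1)), and the fold change was below 0 in all 25. All 4 CB1R KO mice lay below all 5 WT bleomycin mice in CPM. In TPM they did not separate, because CB1R KO mouse 11 was at 18.7 beside 16.4, 17.6, 17.5, 18.1 and 21.1 in the WT bleomycin mice, with 13.8, 14.0 and 15.0 in CB1R KO mice 8, 9 and 10. The ratio of TPM to CPM for Bmper was 0.548 in mouse 11, the most deeply sequenced library, and 0.378 to 0.429 in the other 12 libraries, so the scales diverged in that library. What set that ratio was not tested.

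The other members had intervals that included 0 for CB1R KO against WT bleomycin. They were -1.18 to 0.23 for Grem1 (log2 fold change -0.48), -0.07 to 0.83 for Bmp6 (0.38), -0.04 to 0.43 for Bmpr2 (0.19) and -0.44 to 0.33 for Bmp2 (-0.06). Narrower intervals were found for Bmp4, at -0.17 to 0.24, Bmp5, at -0.22 to 0.12, Id2, at -0.15 to 0.16, and Id3, at -0.27 to 0.10, and that of Id1 was -0.26 to 0.31. A change of Grem1 to 0.44 times, or of Bmp6 to 1.78 times, the WT bleomycin level lies within these bounds and is not excluded by these data. The spread within the CB1R KO group was wide for these genes, with a coefficient of variation in TPM of 69.2% for Grem1 and 43.1% for Bmp6, beside 9.51% and 20.0% in WT bleomycin lungs.

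CB1R KO mice 8 and 9 held Bmp6 and Bmpr2 above, and Grem1 below, the WT bleomycin range, whereas CB1R KO mice 10 and 11 lay within the WT range for Bmp6 and Bmpr2, with Grem1 above it in mouse 10 and just under it in mouse 11. The fibroblast and alveolar fibroblast marker sums given above differed between the same libraries. Type II cell markers, of which 3 of 6 were higher in CB1R KO than in WT bleomycin lungs, summed to 17200, 19500, 12300 and 18700 CPM in mice 8, 9, 10 and 11. Cardiac muscle markers, which mark pulmonary vein or heart tissue in a lung sample, were at 456 to 801 CPM in CB1R KO, 112 to 439 in WT bleomycin and 676 to 1650 in control lungs. The part of these lists in the member values was not tested.

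For CB1R KO bleomycin against control, 5 of the 10 members passed the test, beside 35.4% of all genes tested. Higher were 2 (19.0% of all genes), Grem1 with a log2 fold change of 4.13 (SE 0.47) and Id2 with 0.42 (SE 0.08). Lower were 3 (16.3% of all genes), Bmp6 at -1.34 (SE 0.22), Bmp2 at -0.85 (SE 0.19) and Bmpr2 at -0.73 (SE 0.12). The same 5 did not overlap between the groups in CPM, beside 33.5% of all genes. Bmp4 (-0.24, edgeR adjusted p = 0.0741) and Bmper (0.22, edgeR adjusted p = 0.132) did not pass. Genotype and treatment both differ in this comparison, and it shares the control mice with that of WT bleomycin.

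The remaining genes of the pathway were described from a list of 48, of which 40 passed the count filter. In WT bleomycin against control 32 of the 40 passed the test, 11 higher and 21 lower, with a median log2 fold change of -0.31, beside 48.9% and -0.008 for all genes. The 8 genes not tested were Bmp10, Gdf5, Gdf7, Chrdl2, Sost, Sostdc1, Dand5 and Msx2, none of which exceeded 21 estimated counts in a library.

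Of 6 further ligands tested, 2 were higher and 2 lower. Bmp8b rose by 2.64 (SE 0.74, edgeR adjusted p = 0.00879) and Gdf6 by 2.17 (SE 0.22) on the log2 scale, from control means of 0.0932 and 0.995 CPM. The Bmp8b value rested on 0 to 3.0 estimated counts per library in control and 2.3 to 14.4 in WT bleomycin lungs. Its groups overlapped, with WT bleomycin mouse 4 at 0.127 CPM and control mouse 26 at 0.193 CPM. Gdf2, which encodes the circulating endothelial ligand BMP9 made mainly in liver, fell by 1.22 (SE 0.32) from 1.43 CPM, a call lost with the libraries of lower-case labels alone (-0.90, edgeR adjusted p = 0.08). On the TPM scale all 3 were at most 2.23 in any library, while Bmp4, Bmp5 and Bmp6 were at least 25.5. The other lower ligand, Bmp3, was more abundant, at 14.7 to 17.6 TPM in control and 6.89 to 10.5 in WT bleomycin lungs. It fell by 0.92 (SE 0.11, edgeR adjusted p = 9.93e-06), from 73.8 to 38.9 CPM.

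Of 10 receptors and co-receptors, 7 were lower and 1 was higher. Acvrl1, the endothelial type I receptor ALK1, fell by 0.91 (SE 0.07, edgeR adjusted p = 3.02e-07), from 872 to 463 CPM. Eng, its endothelial co-receptor endoglin, fell by 0.82 (SE 0.08), and Hjv, the co-receptor hemojuvelin, fell by 1.87 (SE 0.39) from a mean of 3.97 CPM. Hjv is known as a transcript of skeletal and heart muscle, and 6 of 6 cardiac markers were lower in the same comparison (median log2 fold change -1.92, summed CPM 676 to 1650 in control and 112 to 439 in WT bleomycin lungs), whose part in the Hjv value was not tested. Bmpr1a, the widely expressed type I receptor, had a log2 fold change of -0.05 (SE 0.06). The fall of Bmpr2 was thus accompanied by lower Acvrl1 and Eng in every WT bleomycin mouse.

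Of 12 further extracellular antagonists and modulators tested, 5 were higher and 5 lower. Nog, which encodes noggin, rose by 3.31 (SE 0.40, edgeR adjusted p = 1.23e-05) from 0.356 to 3.59 CPM. Fst, which encodes the activin and BMP binder follistatin, rose by 3.02 (SE 0.27) from 5.36 to 43.3 CPM, and Fstl1 by 1.98 (SE 0.14) from 140 to 555 CPM. Grem1 was accordingly not alone among antagonists in rising, but as many of the 12 fell as rose, and their median log2 fold change was -0.06. Among those that fell were Chrdl1 (-1.62), Bambi (-1.15) and the more abundant Crim1 (-0.86, from 314 to 173 CPM).

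Of 6 intracellular transducers, 2 were higher and 3 lower. Smad9 fell by 1.79 (SE 0.17, edgeR adjusted p = 1.36e-06), Smad1 rose by 0.68 (SE 0.14) and Smurf2, a ubiquitin ligase for Smads and their receptors, fell by 0.55 (SE 0.08). Of 6 further targets tested, 4 were lower and 1 higher. The inhibitory Smad6 fell by 1.28 (SE 0.20, edgeR adjusted p = 0.000106), the Notch and BMP target Hey1 fell by 1.14 (SE 0.16) and Atoh8 fell by 0.60 (SE 0.18), the last a call lost with the libraries of lower-case labels alone (-0.52, edgeR adjusted p = 0.0688). Among targets, Id2 and Msx1 (0.48, SE 0.17) therefore moved in the other direction from Smad6, Smad7 (-0.39, SE 0.12), Hey1 and Atoh8.

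**Figure D4:**
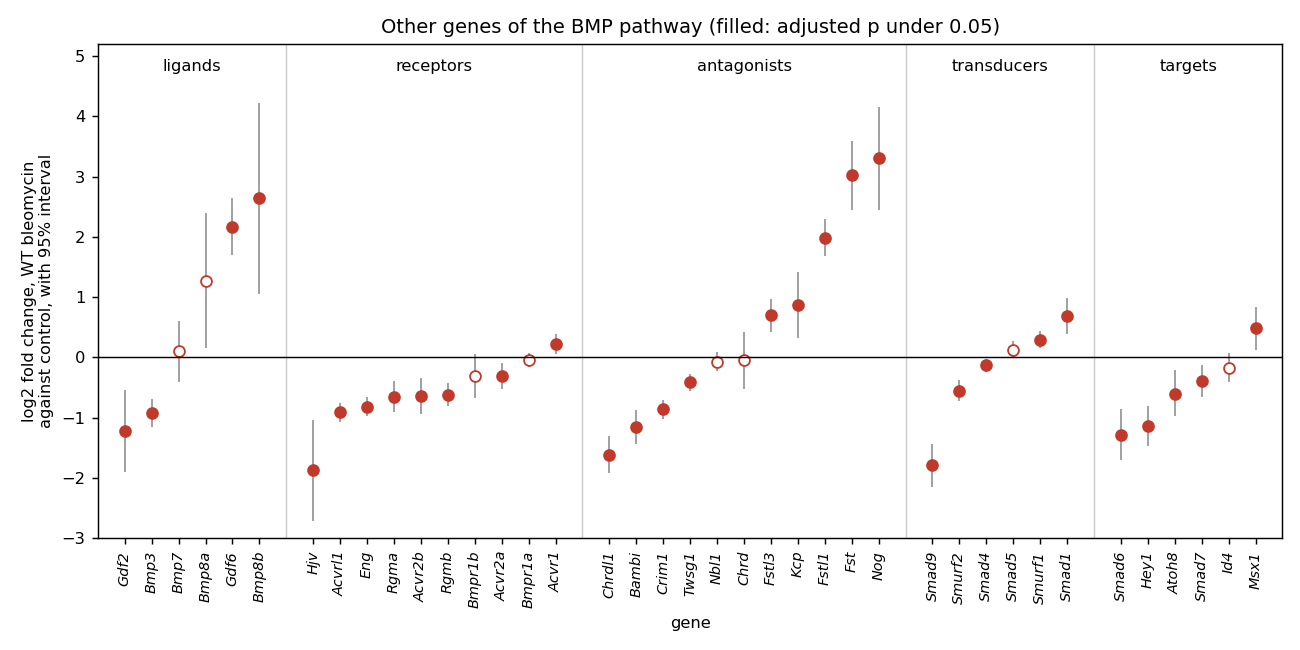
Log2 fold changes of 39 of the 40 other pathway genes tested for WT bleomycin against control, with 95% intervals from edgeR, grouped by role and filled where the adjusted p was under 0.05. Most receptors and targets lie below 0, while the antagonists reach from -1.62 for Chrdl1 to 3.31 for Nog.

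Between CB1R KO and WT bleomycin lungs 2 of the 40 passed, Fst and Smurf1, both lower, beside 0.979% of all genes. An unadjusted p under 0.05 was found for 17 of the 40, beside 17.0% of all genes. Of the 40, 0 passed without CB1R KO mouse 8, 9 or 11 and 1 without control mouse 24 or any single WT bleomycin mouse. The count passing was 6 without CB1R KO mouse 10 and 7 with DESeq2. Over all genes it was 9, 1 and 3 without CB1R KO mice 8, 9 and 11 in turn, 653 without mouse 10 and 644 with DESeq2. Fst was at 29.1, 41.1, 41.3, 49.8 and 55.5 CPM in WT bleomycin lungs, 11.1, 9.89, 22.1 and 18.0 CPM in CB1R KO bleomycin lungs and 3.80 to 6.77 CPM in control lungs. The 3 groups did not overlap. The log2 fold change of CB1R KO against WT bleomycin was -1.49 (SE 0.24, edgeR adjusted p = 0.0177), and the call was lost without CB1R KO mouse 8 (-1.37, adjusted p = 0.0684), 9 (-1.34, adjusted p = 0.0678) or 11 (-1.59, adjusted p = 0.0521) in edgeR.

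Smurf1, a ubiquitin ligase that targets Smad1 and Smad5, had a log2 fold change of -0.28 (SE 0.06, edgeR adjusted p = 0.0416), from 107 to 88.2 CPM, beside 87.5 CPM in control lungs. This call held under 9 of 25 alternatives. In the same comparison Nog was at -1.05 (SE 0.32, edgeR adjusted p = 0.12) and Fstl1 at -0.50 (SE 0.13, edgeR adjusted p = 0.0813), and neither passed. Higher in value were Bmp3 at 0.41 (SE 0.11, edgeR adjusted p = 0.0805) and Hey1 at 0.55 (SE 0.16, edgeR adjusted p = 0.0979), which did not pass either. Among antagonists Nbl1 was at 0.24 (SE 0.07, edgeR adjusted p = 0.132), and the 12 tested had a median log2 fold change of -0.04. For CB1R KO bleomycin against control 23 of the 40 passed, beside 35.4% of all genes, with 5 higher (19.0% of all genes) and 18 lower (16.3% of all genes).

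**Figure D5:**
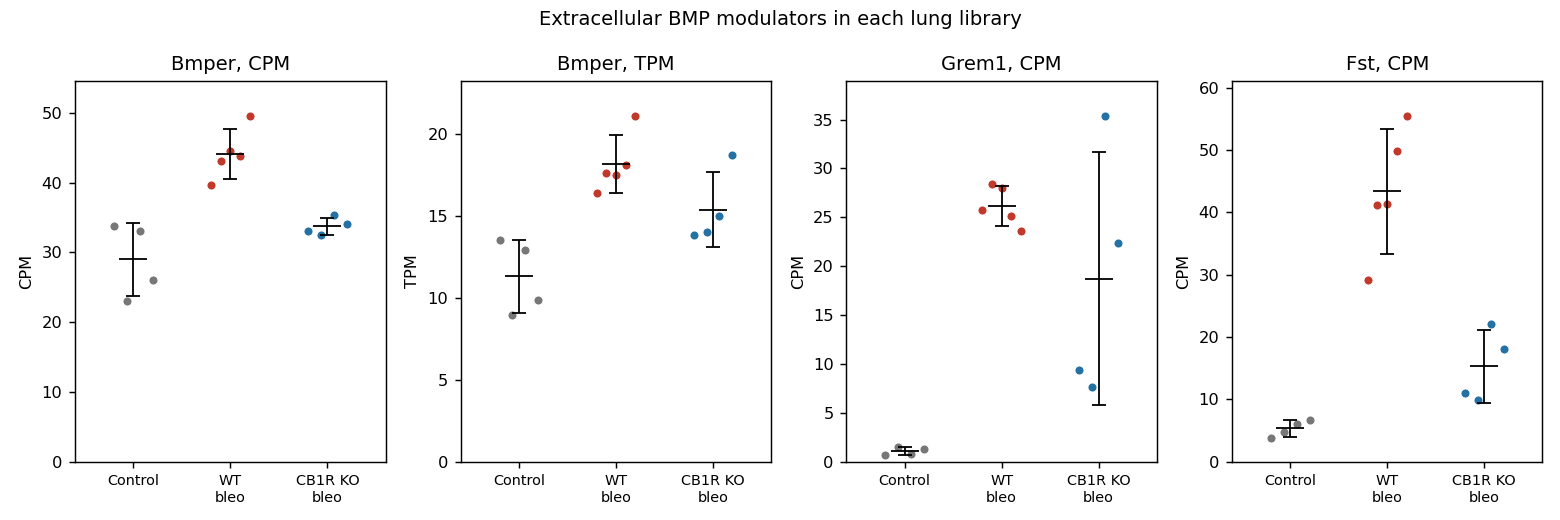
Bmper in CPM and in TPM, Grem1 in CPM and Fst in CPM for each library, with a point per mouse, a bar for the mean and whiskers of 1 SD. Bmper separates CB1R KO from WT bleomycin mice in CPM but not in TPM, Fst separates all 3 groups, and the CB1R KO values of Grem1 run from 7.60 to 35.4 CPM.

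Likeness between genes was described by Pearson's r of log2 CPM after subtraction of the group means, over the 13 libraries. It reflects differences between mice of a group and carries no test. All genes of a library share the depth and scaling of that library. The genes most like Bmpr2 among 15314 were Arhgap31 (0.955), Epas1 (0.944) and Mef2a (0.933). For Bmp6 they were Nipal3 (0.954), Cpm (0.944) and Shisal1 (0.933), for Bmp4 Pfdn2 (0.939), Zfp11 (0.852) and Lsm12 (0.820), and for Id1 Prcd (0.936), Pex11a (0.932) and Kank3 (0.890). Between members the highest value was 0.81, for Bmp5 and Bmpr2, and Grem1 had its lowest value, -0.79, with Bmp6.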

How the data were processed

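RNA of the lower right lung lobe was enriched for mRNA, sequenced as paired-end reads and quantified by the authors with Kallisto on GRCm39 (version not given in the sources used here), per the labels and the methods of the study. The deposited values are estimated counts, not normalized and not whole in 70.5% of cases, and TPM, which the authors summed per gene over protein-coding transcripts. In the TPM table, 1 column matched no sample and was not used. Groups were taken from the treatment in the labels.

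Estimated counts were rounded, filtered with filterByExpr, scaled by TMM and tested by quasi-likelihood in edgeR 4.0.16 under R 4.3.3, with all 13 libraries in 3 groups and Benjamini-Hochberg adjustment over 15315 genes and a threshold of 0.05. A prior count of 2 entered log2 CPM. Standard errors were derived from the F statistic. The p-values set a group difference against a spread between mice that was estimated over all 3 groups with information from other genes. Levels of different genes were compared in TPM only. The procedure was tested on simulated data.

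Results were recomputed with DESeq2 1.42.0 and limma 3.58.1, without the count filter or with a minimum of 10 counts per library, with RLE or upper-quartile scaling, with edgeR on 2 groups, with label style (capital for control 26 and WT bleomycin 4-B2 and 7) as a batch term or lower-case labels only, CB1R KO 11 thinned, and each library left out. Members and lists were chosen with earlier results of these data known. Named pathway genes were, per role, up to 3 with the largest absolute log2 fold change among those passing in WT bleomycin against control. Every gene passing between CB1R KO and WT bleomycin was named too. Bmp3, Bmpr1a, Chrdl1, Bambi, Crim1, Nbl1, Msx1 and Smad7 were added after their values were seen. Of the pathway genes tested, 1 is counted but not reported here by name or plotted. Genes of like pattern were the 3 highest by Pearson's r, for the 4 members with the highest values. Promoter windows came from RefSeq (GRCm38.p6), a build other than that of the counts. Python 3.11.15, pandas 2.3.3, numpy 2.4.6 and matplotlib 3.10.9 were used.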

Additional observations from a re-analysis of the deposited data

How the results depend on the processing

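For WT bleomycin against control and for CB1R KO bleomycin against control, the counts of members and of other pathway genes that passed stayed within 1.5 times of those reported under all 25 alternatives. The count of members between CB1R KO and WT bleomycin went from 0 to 1 with DESeq2 on all libraries or on 2 groups and with edgeR on 2 groups. The count of other pathway genes there, 2 as reported, was 1 without a count filter, with limma on log2(TPM + 1) or log2(TPM + 0.1), with edgeR on 2 groups, with the label style as a batch term or with CB1R KO 11 thinned, 7 with DESeq2 in both forms and 0 with lower-case labels only. With libraries left out in turn it ranged from 0 (without CB1R KO 8, 9 or 11) to 6 (without CB1R KO 10). Over all genes, 150 passed as reported, 644 with DESeq2 and 88 with edgeR on 2 groups. With libraries left out the count over all genes ran from 1 (without CB1R KO 9) to 653 (without CB1R KO 10).

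Changes of sign were found only for members that did not pass. With lower-case labels only, the log2 fold change became -0.03 for Bmp5 and 0.02 for Id3 in WT bleomycin against control and 0.01 for Bmp5 between CB1R KO and WT bleomycin. With limma it became 0.01 for Id3 in WT bleomycin against control and 0.06 for Bmp5 in CB1R KO bleomycin against control under both pseudocounts, and with the label style as a batch term the latter was 0. With upper-quartile scaling Id2 between CB1R KO and WT bleomycin was 0 with a negative sign before rounding. With libraries left out, the ranges for WT bleomycin against control were -0.01 to 0.07 for Bmp5 and -0.08 to 0.04 for Id3. Between CB1R KO and WT bleomycin they were -0.20 to 0.11 for Bmp2, -0.10 to 0.12 for Bmp4, -0.12 to 0.00 for Bmp5, -0.04 to 0.09 for Id1 and -0.05 to 0.03 for Id2, and for Bmp5 in CB1R KO bleomycin against control -0.08 to 0.04. The causes were not tested.

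The call of Bmp4 in WT bleomycin against control was also lost with lower-case labels only (-0.27), as were those of Gdf2 (-0.90) and Atoh8 (-0.52), and that of Fst between CB1R KO and WT bleomycin (-1.28). In CB1R KO bleomycin against control, Bmper passed with limma (0.42 and 0.45 for the pseudocounts 1 and 0.1) and without control 3 (0.30), and Bmp4 passed without CB1R KO 8 (-0.37). No scaling moved the median log2 fold change of all genes by as much as 0.1. No paired analysis was possible because the groups compared share no mouse number. In control lungs the Grem1 level rests on few counts, which limits the precision of its fold change. The permutation test of log2 CPM, adjusted over 30 tests, gave some other calls. Bmper passed between CB1R KO and WT bleomycin (0.0397). For WT bleomycin against control Bmp2, Bmp6, Bmpr2, Bmper and Grem1 passed (each 0.0397). Bmp4 and Id2 did not (both 0.0595). No member passed in CB1R KO bleomycin against control, where the smallest unadjusted p possible was 0.0286.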
